A study of Mus musculus with 29 samples.

Results

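The mucus and goblet cell genes described here are Muc1, Muc2, Muc4, Muc13, Tff3, Clca1, Fcgbp, Zg16, Agr2 and Spdef. They were chosen by name, and all 10 were found among the 54532 genes of the count table by the symbol of their Ensembl identifier. Their RNA was measured by RNA-seq in colon segments of 29 mice, in 6 models of colitis and 3 control groups, and each model was set against the control of its genotype. The untreated wild-type controls (n = 3) were Balb/C mice. The same strain received DSS (n = 3; 3% in drinking water for 5 days, culled at day 10), DNBS (n = 3; 3 mg given rectally) or an IL10 blocking antibody (n = 4), for which the protocol names 750 µg of anti-IL-10R and a cull after 4 weeks or at earlier signs of colitis. TRUC mice (n = 4) were untreated Balb/C mice lacking Tbx21 and Rag2, and were compared with untreated Balb/C Rag2-/- mice (n = 3), so that the lack of Rag2 and of mature lymphocytes was shared. In the TCT model (n = 3), C57BL/6 Rag1-/- mice received 500000 naive CD4 T cells and were culled after 6 to 8 weeks, although the protocol text calls the recipients Rag2-/-. In the anti-CD40 model (n = 3), C57BL/6 Rag1-/- mice received 50 µg of agonist antibody and were culled after 7 days. Both were compared with untreated C57BL/6 Rag1-/- mice (n = 3). The DSS, DNBS and IL10 antibody groups share the wild-type controls, and TCT and anti-CD40 share the Rag1-/- controls. Ages are not given in the labels used here, although the library identifier of TRUC mouse 4 carries an unexplained "8W", and which part of the colon each segment came from is not stated there.

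Goblet cells of the colon secrete mucus, a gel that keeps bacteria away from the epithelium. Its frame is the gel-forming mucin Muc2, and Fcgbp, Clca1, Zg16 and the trefoil peptide Tff3 are secreted with it. Muc1, Muc4 and Muc13 are mucins anchored in the cell membrane, Agr2 is a disulfide isomerase of the endoplasmic reticulum that is needed to make Muc2, and Spdef is a transcription factor of goblet cell maturation. Loss of goblet cells and of mucus is a known feature of colitis.

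Total counts per mouse ran from 10725564 to 14977094, and the 10 genes together took between 0.69% and 1.64% of them. The unit of level is CPM after TMM scaling, each count divided by the effective library size of its mouse and scaled to a common depth, and the 18616 genes that averaged 3 or more counts per mouse, all 10 members among them, were tested with edgeR's quasi-likelihood test. Fold changes are log2 of the model over its control with a standard error (SE), and p values were adjusted by the Benjamini-Hochberg method over all genes tested, with a threshold of 0.05. RNA came from whole segments, so fewer goblet cells and less RNA per cell cannot be told apart. Each library is from a separate mouse as labelled, and no 2 libraries of the same group were alike within sampling noise (33 pairs). Libraries of different groups were not compared in this way. The genotype labels did not fully match the counts. Rag2 had 6 to 20 counts in the Rag1-/- controls and 48 to 99 in the anti-CD40 mice, close to the 15 to 94 in the mice labelled Rag2-/- or TRUC. It had 0 counts in the 3 TCT mice and at most 1 in any wild-type, DSS, DNBS or IL10 antibody mouse. Rag1 had 20 to 33 counts in the TCT mice and at most 4 in any other mouse. By these counts the TCT mice were unlike the Rag1-/- controls, so that a shared genotype rests on the labels alone. Tbx21 had 26 to 52 counts in the TRUC mice, and whether these reads lie in the deleted exons was not tested. For DSS the methods of the study name C57BL/6 mice where the labels give Balb/C, and for DSS and TCT other cull times than those above. The IL10 antibody group follows its labels, whereas the same methods describe a model in Il10-/- mice. Il10 RNA was present in the IL10 antibody mice (61 to 111 counts).

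One library stood apart. Mouse 4 of the IL10 antibody group had 2 counts of Hoxb13 and 3 of Hoxd13, genes that mark the distal colon, where the other 28 mice had 1090 to 7844 and 92 to 5065 counts. The 92 counts of Hoxd13 belong to mouse 3 of the same group. The results of the members and of the further gene lists in the IL10 antibody group are therefore given with and without mouse 4.

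The summed level of 8 epithelial markers was 9286 to 10934 CPM in the wild-type controls, 7137 to 8710 CPM in the DSS mice, 10031 to 12974 CPM with DNBS and 14017 to 18830 CPM with the IL10 antibody. It was 11548 to 12451 CPM in the Rag2-/- controls and 14303 to 15443 CPM in TRUC. In the Rag1-/- controls it was 10272 to 11240 CPM, in TCT 11836 to 13316 CPM, and in anti-CD40 12567 to 13875 CPM. Of the 48 comparisons of these epithelial markers, 17 were called higher and 3 lower. The markers did not move alike, with log2 fold changes over the models of -0.27 to 0.16 for Cdh1 and 0.08 to 1.16 for Cldn7. In DSS 3 were called lower and 0 higher, with changes from -0.71 to 0.36. Of the 48 gene by model comparisons of 8 leukocyte markers, 34 were called higher and 0 lower, and their sum rose from 192 to 347 CPM in the controls to 420 to 3165 CPM in the models. Absorptive colonocyte markers were called higher in 7 and lower in 13 of 42 comparisons, smooth muscle markers lower in 6 of 30, tuft and enteroendocrine markers higher in 3 and lower in 9 of 24, and the 1 tested pancreas marker, Cela1, lower in 5 of 6. The distal colon markers Hoxb13 and Hoxd13 were called in 0 of 12. Hoxb13 was lower in every model (log2 fold change -1.44 to -0.22), without overlap of mice in 5 of 6. Hoxd13 lacked overlap in 1. In DSS both summed to 204 to 436 CPM, against 658 to 849 CPM in the wild-type controls. The spread in this fit is estimated over all groups, among them IL10 antibody mouse 4, with 2 and 3 counts of these genes. The lack of calls therefore does not show that segment position was alike. The part of the cell types above in the changes below was not tested, except by the epithelial scale described further on.

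Per length, the members spanned a wide range. In the wild-type controls the mean CPM per kilobase of annotated exon (RPKM ± SD, n = 3) were 1031 ± 65.8 for Tff3, 775 ± 51.9 for Zg16, 715 ± 34.7 for Muc13, 614 ± 73.2 for Clca1, 350.1 ± 25.0 for Agr2, 155 ± 17.8 for Fcgbp and 103 ± 2.56 for Muc2. Spdef (12.8 ± 0.513 RPKM), Muc1 (9.13 ± 0.725 RPKM) and Muc4 (2.54 ± 0.152 RPKM) were far lower. The mice of Zg16 and Muc13 overlapped (715 to 807 and 675 to 735 RPKM), those of Muc13 and Clca1 overlapped at the edge (675 and 676 RPKM), and the other neighbours in this order did not overlap. The annotated exons of Muc2 add up to only 7127 bases, so that its level per length depends on that gene model. By CPM, Clca1 ranked second among all genes in both the Rag1-/- and the Rag2-/- controls, and 825th in TRUC. Muc13 ranked between 4 and 13 in every group.

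**Figure D1:**
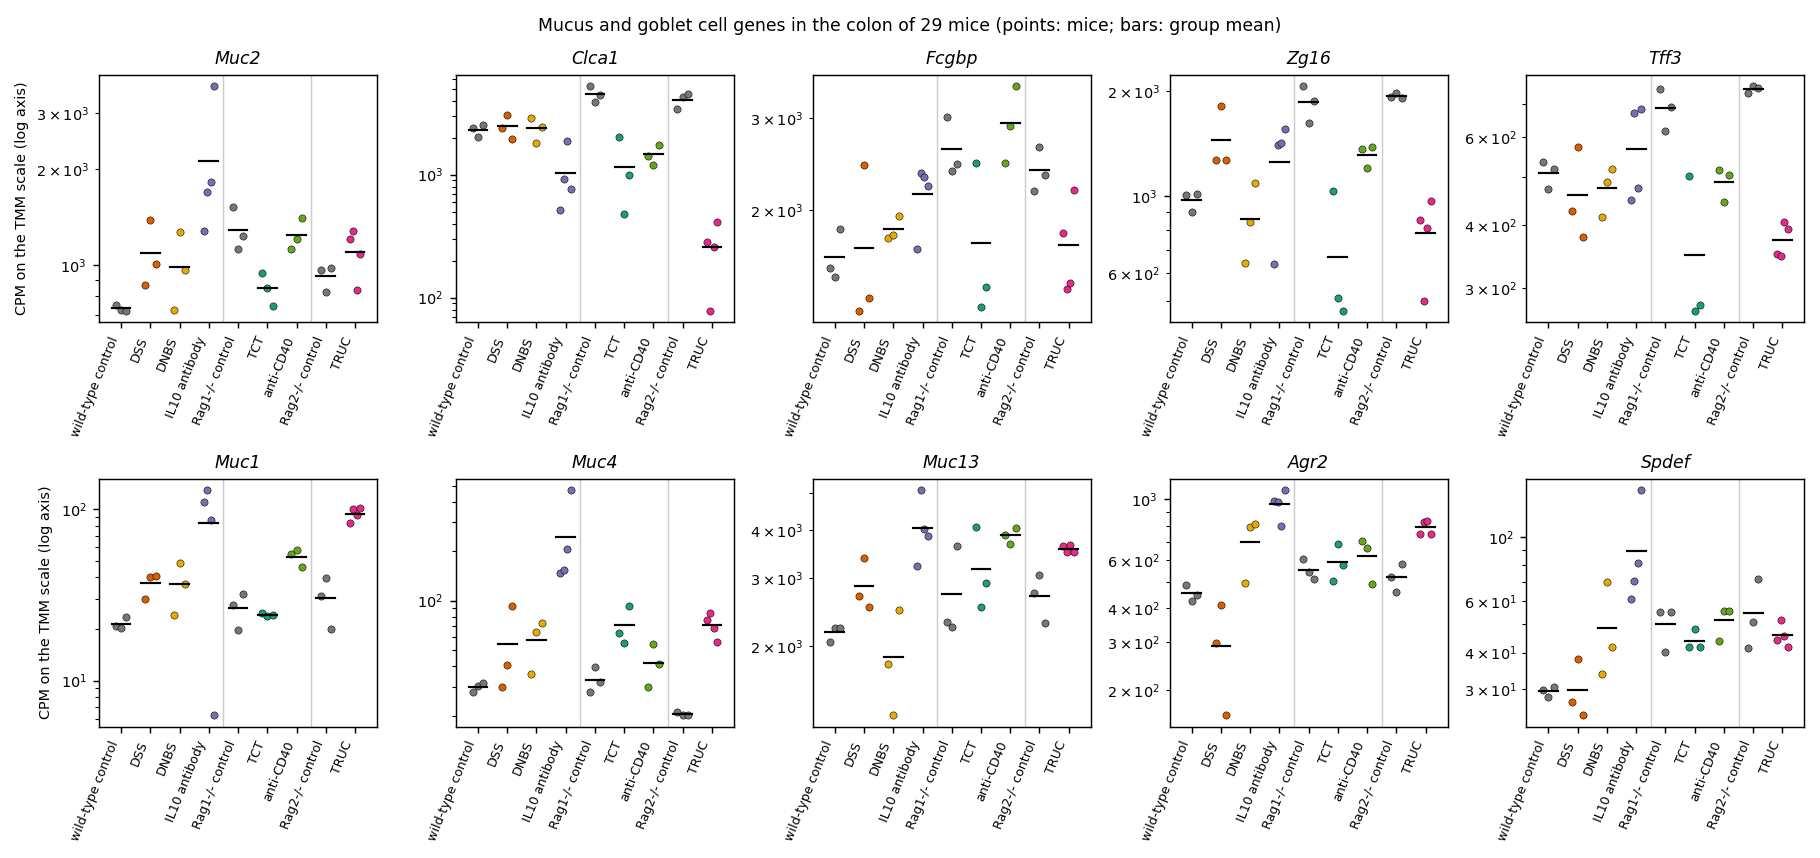
Level of each of the 10 genes (CPM on the TMM scale, log axis) in each of the 29 mice, by group. Points are mice, horizontal bars are group means, and vertical lines separate the 3 sets of groups that share a control. The 4 TRUC mice lie between 77.9 and 414 CPM for Clca1, below all Rag2-/- controls (3430 to 4502 CPM), and the IL10 antibody mouse with 6.27 CPM of Muc1 lies below every other mouse.

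The 10 genes did not move as 1 group. In TRUC, 3 members were higher (Muc1, Muc4, Agr2) and 3 lower (Clca1, Zg16, Tff3), where 22.4% of all genes tested were higher and 23.4% lower (45.8% in all). In the IL10 antibody group, 6 were higher (Muc1, Muc2, Muc4, Muc13, Agr2, Spdef) and 1 lower (Clca1), where 27.2% of genes were higher and 26.1% lower (53.3% in all). In TCT, 1 was higher (Muc4) and 3 lower (Clca1, Zg16, Tff3), where 16.1% of genes were higher and 14% lower (30.1% in all). DSS had 1 lower member (Agr2), where 17.7% of genes were higher and 16.3% lower (34% in all). Anti-CD40 had 1 lower member (Clca1), where 10.9% were higher and 10.7% lower (21.6% in all), and DNBS had 0 called members, where 3.95% of genes were higher and 2.21% lower (6.17% in all). In DNBS 3 members had an unadjusted p under 0.05 with edgeR, and DESeq2 on the 2 groups alone called 4. The shares of all genes were not computed for these 2 settings, so the member numbers cannot be set against them. The mice of model and control did not overlap for 7 members in TRUC (58% of all genes), 6 in the IL10 antibody group (55.7%), 5 in DSS (49.9%), 5 in TCT (43.1%), 5 in anti-CD40 (39.6%) and 4 in DNBS (32.4%). The median log2 fold change of the 10 was 0.99 in the IL10 antibody group, -0.39 in TCT, 0.30 in DNBS, 0.25 in DSS, 0.10 in anti-CD40 and 0.00 in TRUC, where the median of all genes tested lay between -0.03 and 0.02.

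**Figure D2:**
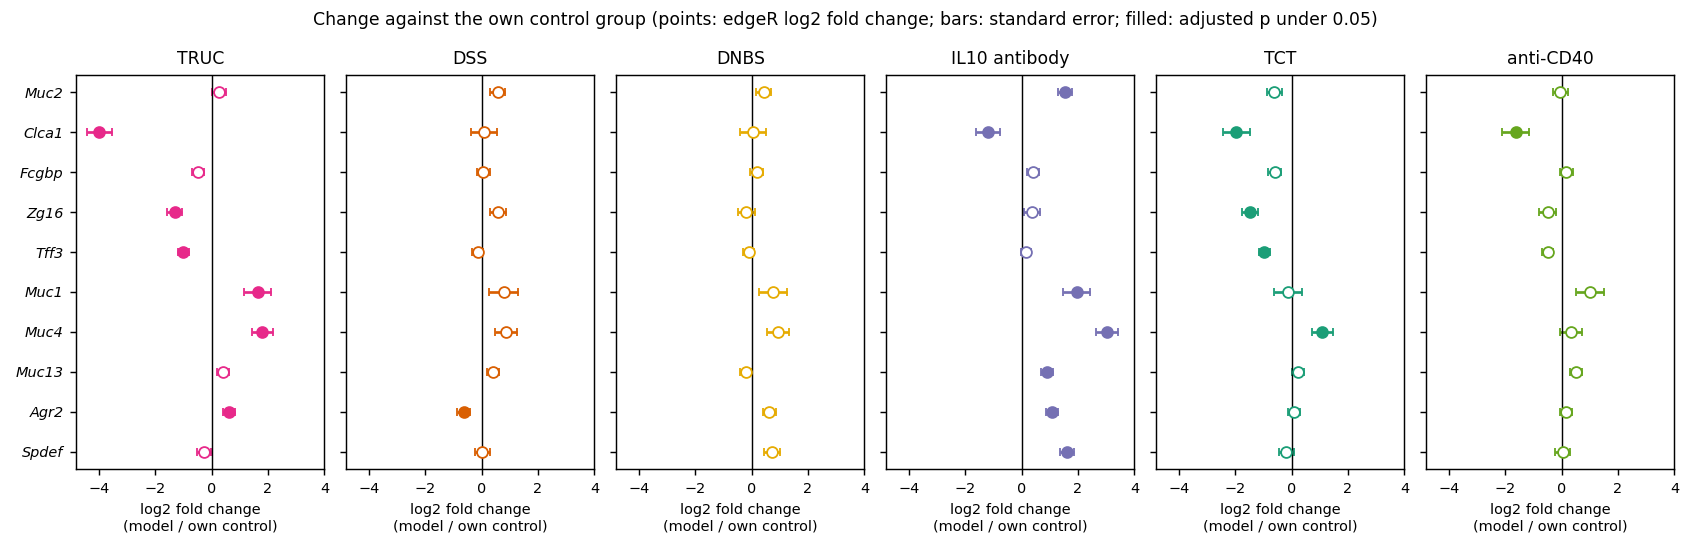
Log2 fold change of each gene in each model against its own control, with edgeR; points are estimates, bars are standard errors and filled points have an adjusted p under 0.05. Clca1 has a filled point left of 0 in TRUC, the IL10 antibody group, TCT and anti-CD40, and the membrane mucin Muc4 has a filled point right of 0 in TRUC, the IL10 antibody group and TCT.

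Muc2, the mucin that forms the gel (chromosome 7, 141690340 to 141754693, plus strand, GRCm38), rose past the threshold in the IL10 antibody group and in no other model. Its level was 753, 724 and 719 CPM in the wild-type controls and 1283, 1700, 1829 and 3653 CPM in the IL10 antibody mice. Every IL10 antibody mouse was above every control, and mouse 4 was the highest. The log2 fold change was 1.53 (SE 0.26, edgeR adjusted p = 4.5e-05), and without mouse 4 it was 1.12 (SE 0.19, adjusted p = 7.1e-05). The DSS mice had 868, 1386 and 1012 CPM, all above the controls, with a change of 0.57 that did not pass (adjusted p = 0.097). With DESeq2 on the 2 groups alone this change passed (0.56, adjusted p = 0.026). The DNBS mice had 722, 1269 and 968 CPM (adjusted p = 0.32). In the TCT mice Muc2 stood at 944, 848 and 745 CPM, all below the 1518, 1125 and 1238 CPM of the Rag1-/- controls, with a change of -0.61 (SE 0.27, edgeR adjusted p = 0.084). The anti-CD40 mice (1122, 1205 and 1407 CPM) overlapped those controls, and the TRUC mice (1205, 1281, 835 and 1083 CPM) overlapped the Rag2-/- controls (966, 823 and 978 CPM). On the TMM scale with all mice in 1 fit, Muc2 was thus called lower in 0 of the 6 models. In TCT it passed as lower with only the 2 groups in the fit, by edgeR (-0.62, adjusted p = 0.0079) and by DESeq2 (-0.60, adjusted p = 0.0022), and relative to epithelial markers (-0.83, edgeR adjusted p = 0.0065). The 250 bases before the Muc2 start (RefSeq, GRCm38.p6, chr7:141690090-141690339, plus strand) are shown for comparison with the promoters of members that rose alongside it.

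Muc2: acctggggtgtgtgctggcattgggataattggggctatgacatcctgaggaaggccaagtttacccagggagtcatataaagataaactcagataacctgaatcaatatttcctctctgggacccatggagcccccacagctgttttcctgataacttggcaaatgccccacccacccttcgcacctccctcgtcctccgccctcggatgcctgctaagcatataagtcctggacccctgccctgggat

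Clca1, a secreted metalloprotease that processes Muc2 (chromosome 3, 145003817 to 145032776, minus strand), had the largest change of any member in TRUC, TCT and anti-CD40. In TRUC it stood at 283, 77.9, 258 and 414 CPM, against 3430, 4278 and 4502 CPM in the Rag2-/- controls. The groups were far apart, with a 15.8-fold lower level (log2 fold change -3.98, SE 0.46, edgeR adjusted p = 9.8e-07). The TCT mice had 2014, 477 and 999 CPM and the anti-CD40 mice 1422, 1203 and 1750 CPM, against 5277, 3871 and 4407 CPM in the Rag1-/- controls. All 6 treated mice were below all 3 controls. The log2 fold change was -1.96 in TCT (SE 0.47, edgeR adjusted p = 0.0029) and -1.63 in anti-CD40 (SE 0.47, adjusted p = 0.016). The anti-CD40 call was lost without anti-CD40 mouse 6 (adjusted p = 0.0510) or mouse 7 (0.0835).

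In the IL10 antibody group Clca1 was at 515, 919, 1887 and 771 CPM, against 2387, 2014 and 2553 CPM in the wild-type controls. These groups did not overlap, although mouse 3 came close to the lowest control, and the log2 fold change was -1.18 (SE 0.43, edgeR adjusted p = 0.023). Without mouse 4 Clca1 changed by -1.08 and the call was lost (adjusted p = 0.0563), and it was also lost without mouse 1 (0.0746) or without wild-type control 1 (0.0519) or 4 (0.0615). The Clca1 values in DSS (2380, 3061 and 1963 CPM) and DNBS (2892, 1813 and 2432 CPM) lay around those of the controls, with changes of 0.09 and 0.04 (edgeR adjusted p = 0.90 and 0.97).

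Zg16, a small lectin of the mucus that binds bacteria, fell in TRUC and TCT. It stood at 856, 499, 808 and 966 CPM in TRUC, against 1925, 1977 and 1910 CPM in the Rag2-/- controls. The TCT mice had 1034, 510 and 468 CPM, against 2075, 1626 and 1881 CPM in the Rag1-/- controls. Neither pair of groups overlapped. The log2 fold change of Zg16 was -1.31 in TRUC (SE 0.27, edgeR adjusted p = 0.00043) and -1.47 in TCT (SE 0.29, adjusted p = 0.00045). In anti-CD40 its level was 1363, 1205 and 1382 CPM, below all controls, but the change of -0.50 did not pass (adjusted p = 0.22). In DSS it was 1274, 1815 and 1272 CPM, above the 1010, 899 and 1014 CPM of the wild-type controls, and again did not pass (0.58, adjusted p = 0.12). With only the 2 groups in the fit, the DSS change of Zg16 passed by edgeR (0.57, adjusted p = 0.0499) and by DESeq2 (0.57, adjusted p = 0.015). The IL10 antibody mice had 639, 1407, 1418 and 1560 CPM. Mouse 1 alone was below the controls and the other 3 were above. The Zg16 change of 0.37 in that group (edgeR adjusted p = 0.26) became 0.59 (adjusted p = 0.0497) without mouse 1 and 0.24 (adjusted p = 0.50) without mouse 4. DNBS (644, 842 and 1089 CPM) overlapped its controls.

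Tff3, a trefoil peptide of epithelial repair, followed the same 2 models. It was at 350, 348, 407 and 393 CPM in TRUC, against 734, 760 and 753 CPM in the Rag2-/- controls, so that it fell by 1.00 on the log2 scale (SE 0.18, edgeR adjusted p = 0.00013). In TCT it was at 501, 270 and 278 CPM, against 749, 617 and 691 CPM, a change of -0.97 (SE 0.19, adjusted p = 0.00049). TCT mouse 1 had the highest level of its group for Tff3, Zg16, Clca1 and Fcgbp. The anti-CD40 mice (516, 445 and 503 CPM) were below all Rag1-/- controls, with a Tff3 change of -0.49 that did not pass (edgeR adjusted p = 0.071). In the 3 models on wild-type Balb/C mice Tff3 was at 427, 572 and 379 CPM in DSS, 416, 487 and 519 CPM in DNBS, and 449, 669, 475 and 682 CPM in the IL10 antibody group, against 535, 472 and 518 CPM in the controls, and all overlapped. Its change in the IL10 antibody group was 0.16 (edgeR adjusted p = 0.47) and 0.06 without mouse 4 (adjusted p = 0.82).

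Fcgbp, a large protein that binds to Muc2 in the gel, was called in 0 of the 6 models in the fit described above. Its range over all 29 mice was 1282 to 3454 CPM. The nearest to the threshold were TCT (2458, 1303 and 1427 CPM, against 3013, 2379 and 2448 CPM; -0.60, edgeR adjusted p = 0.055) and TRUC (1809, 1412, 1452 and 2182 CPM, against 2175, 2637 and 2337 CPM; -0.48, adjusted p = 0.074). The IL10 antibody mice had 1683, 2356, 2311 and 2223 CPM, against 1552, 1486 and 1838 CPM (0.40, adjusted p = 0.13; 0.37 without mouse 4, adjusted p = 0.18). Without TCT mouse 1 the TCT value was -0.94 (adjusted p = 0.0040). Without TRUC mouse 5 the TRUC value was -0.61 (adjusted p = 0.032). With only the 2 groups in the fit, Fcgbp passed as lower in TRUC by edgeR (-0.48, adjusted p = 0.014) and by DESeq2 (-0.46, adjusted p = 0.0038). It also passed there with upper quartile scaling (-0.58, edgeR adjusted p = 0.031), and in TCT without the low-count filter (-0.60, edgeR adjusted p = 0.042). Of the 50-base windows in the exons of Fcgbp, 6.42% also occur in another gene, so some of its reads may have been split; for the other 9 members the share was 0%.

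Muc4, a membrane mucin that can bind ErbB receptors, rose in 3 models. It stood at 148, 154, 207 and 469 CPM in the IL10 antibody group, against 28.0, 30.2 and 31.5 CPM in the wild-type controls. All 4 mice were well above all controls, with mouse 4 the highest. The log2 fold change was 3.03 (SE 0.40, edgeR adjusted p = 2.8e-06), an 8.17-fold rise, and 2.49 without mouse 4 (SE 0.32, adjusted p = 4.0e-06). In TRUC, Muc4 was at 76.2, 83.8, 68.3 and 56.3 CPM, against 21.0, 20.1 and 20.3 CPM, with no overlap and a change of 1.80 (SE 0.38, edgeR adjusted p = 0.00061). In TCT it was at 63.6, 55.1 and 93.4 CPM, against 27.7, 39.5 and 32.2 CPM, a change of 1.09 (SE 0.39, adjusted p = 0.035). The TCT call was lost without TCT mouse 5 (0.84, adjusted p = 0.164) and without Rag1-/- control 2 (adjusted p = 0.108) or 4 (0.0833). The Muc4 levels in DSS (29.8, 40.6 and 92.2 CPM) and DNBS (35.9, 64.2 and 72.8 CPM) gave changes of 0.85 and 0.94 that did not pass (edgeR adjusted p = 0.090 and 0.13). Anti-CD40 (29.7, 54.2 and 41.0 CPM) overlapped its controls. The exons of Muc4 share 627 of 11757 bases (5.33%) with Muc20 on the opposite strand, and the library protocol names no step that marks the strand, so that reads of both cannot be told apart there. Muc20 had 2 to 98 counts per mouse and Muc4 237 to 4488.

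Muc1, a membrane mucin with a signalling tail, rose in TRUC and in the IL10 antibody group. In TRUC it stood at 82.4, 99.7, 91.8 and 101 CPM, against 31.0, 39.6 and 19.9 CPM in the Rag2-/- controls, without overlap and with a log2 fold change of 1.64 (SE 0.48, edgeR adjusted p = 0.0080). In the IL10 antibody group mice 1 to 3 had 110, 129 and 86.1 CPM, while mouse 4 had 6.27 CPM, below the 20.7, 20.2 and 23.4 CPM of the controls. Muc1 was therefore the member for which this mouse moved opposite to the rest of its group. The change was 1.95 (SE 0.49, adjusted p = 0.0020) with mouse 4 and 2.33 (SE 0.23, adjusted p = 1.9e-07) without it. The Muc1 values of DSS (29.8, 40.1 and 40.5 CPM), DNBS (24.2, 48.5 and 36.6 CPM) and anti-CD40 (54.7, 57.8 and 45.8 CPM) were all above their controls (Rag1-/- controls 27.7, 19.6 and 31.9 CPM), with changes of 0.78, 0.76 and 1.00 that did not pass (edgeR adjusted p = 0.24, 0.36 and 0.15). TCT (24.7, 23.8 and 24.1 CPM) overlapped its controls. With only the 2 groups in the fit, the DSS change of Muc1 passed by edgeR (0.77, adjusted p = 0.020) and by DESeq2 (0.77, adjusted p = 0.00087).

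Since the spread is estimated over all groups, leaving out mouse 4 of the IL10 antibody group also narrowed the errors elsewhere. Without it, Muc1 passed in DSS (0.77, edgeR adjusted p = 0.0101), in DNBS (0.77, adjusted p = 0.0372) and in anti-CD40 (1.03, adjusted p = 0.0022). Muc2 then passed in DSS (0.56, adjusted p = 0.0235) and as lower in TCT (-0.60, adjusted p = 0.0181), Muc4 passed in DSS (0.84, adjusted p = 0.0376) and Spdef in DNBS (0.72, adjusted p = 0.0400). The number of members called was then 4 in DSS (37.1% of all genes), 2 in DNBS (8.45%) and 2 in anti-CD40 (24.8%), so that calls over all genes also became more frequent in these models.

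Muc13, the most abundant of the membrane mucins here, was at 3229, 5082, 4038 and 3872 CPM in the IL10 antibody group, against 2051, 2233 and 2233 CPM in the wild-type controls. The groups did not overlap, and the log2 fold change was 0.90 (SE 0.20, edgeR adjusted p = 0.00071), or 0.92 (adjusted p = 0.0013) without mouse 4. It was also above all controls in TRUC (3642, 3503, 3655 and 3517 CPM, against 2750, 3061 and 2301 CPM), in DSS (2697, 3391 and 2523 CPM) and in anti-CD40 (3884, 3679 and 4062 CPM, against 2307, 2242 and 3646 CPM). Those Muc13 changes of 0.40, 0.40 and 0.50 did not pass (edgeR adjusted p = 0.097, 0.14 and 0.087). With only the 2 groups in the fit, the TRUC change passed by edgeR (0.40, adjusted p = 0.0024) and by DESeq2 (0.42, adjusted p = 0.00010). TCT (4088, 2525 and 2913 CPM) and DNBS (1803, 1324 and 2484 CPM) overlapped their controls. Muc13 shares 184 of 3038 exon bases (6.06%) with Gm15657 on the other strand, which had 22 to 140 counts where Muc13 had 17074 to 56605.

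Agr2, the isomerase that folds Muc2, was the member called in opposite directions. It stood at 983, 978, 799 and 1082 CPM in the IL10 antibody group and at 298, 411 and 162 CPM in DSS, against 487, 423 and 447 CPM in the shared wild-type controls. The first group was above and the second below every control. The log2 fold change was 1.09 in the IL10 antibody group (SE 0.21, edgeR adjusted p = 0.00022; 1.02 without mouse 4, adjusted p = 0.00084) and -0.64 in DSS (SE 0.22, adjusted p = 0.030). The DSS call was lost without DSS mouse 8 (-0.35, adjusted p = 0.201) and without wild-type control 1 (adjusted p = 0.0858) or 4 (0.0592). It was also lost with edgeR on the 2 groups alone (-0.65, adjusted p = 0.154). DSS mouse 8 had the lowest Agr2 of all mice and also the lowest Hoxb13 (1090 counts) of the 28 mice other than IL10 antibody mouse 4, and its leukocyte markers summed to 3165 CPM, the highest of all mice. The part of these in its Agr2 level was not tested. In TRUC, Agr2 was at 750, 824, 835 and 748 CPM, against 518, 459 and 580 CPM, a change of 0.60 (SE 0.21, edgeR adjusted p = 0.022) that lost its call without Rag2-/- control 1 (adjusted p = 0.0600) or 2 (0.0917). With upper quartile scaling the TRUC change of Agr2 did not pass (0.50, edgeR adjusted p = 0.0575). In DNBS Agr2 was at 494, 793 and 810 CPM, all above the controls (0.63, adjusted p = 0.088). TCT (504, 685 and 573 CPM) and anti-CD40 (701, 661 and 491 CPM) overlapped the Rag1-/- controls (603, 541 and 512 CPM).

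Spdef, the goblet cell transcription factor, rose in the IL10 antibody group. It stood at 61.3, 70.6, 81.3 and 145 CPM, against 29.6, 28.1 and 30.4 CPM in the wild-type controls, with mouse 4 again highest. The groups did not overlap and the log2 fold change was 1.61 (SE 0.26, edgeR adjusted p = 3.0e-05), or 1.27 without mouse 4 (adjusted p = 7.8e-05). In DNBS, Spdef was at 33.8, 70.03 and 41.7 CPM, above the controls without passing (0.72, adjusted p = 0.10). DSS (26.9, 38.0 and 24.3 CPM), TRUC (44.1, 51.9, 45.6 and 41.8 CPM, against 41.5, 51.0 and 71.4 CPM), TCT (41.7, 48.3 and 41.8 CPM, against 55.1, 40.2 and 55.1 CPM) and anti-CD40 (43.8, 55.5 and 55.8 CPM) overlapped their controls.

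The promoters of the members that rose were set beside that of Muc2. RefSeq (GRCm38.p6) gave 8 windows of 250 bases before the start for 7 of the 10 genes (Muc1, Muc2, Muc4, Muc13, Agr2, Fcgbp and Spdef; 2 windows for Muc13). Both strands were searched for TTTATNG, a motif bound by the intestinal factor family CDX, and for TTCNNNGAA, the palindrome bound by STAT factors. The first was found in Agr2 (first base 48 before the start) and Muc4 (37 before the start), and in 9.81% of all 32851 promoters of this length. Its letters, which overlap those of a TATA box, lie on the opposite strand in both. The second was found in 1 of the 2 Muc13 windows (140 before the start) and in 7.02% of all promoters. No match was found in the window of Muc1, Muc2, Fcgbp or Spdef. Capitals mark the match in the 3 windows that hold one, which are Agr2 at chr12:35992675-35992924, Muc4 at chr16:32735636-32735885 and Muc13 at chr16:33793787-33794036, all on the plus strand. A match is a description of letters and was not tested as a site.

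Agr2: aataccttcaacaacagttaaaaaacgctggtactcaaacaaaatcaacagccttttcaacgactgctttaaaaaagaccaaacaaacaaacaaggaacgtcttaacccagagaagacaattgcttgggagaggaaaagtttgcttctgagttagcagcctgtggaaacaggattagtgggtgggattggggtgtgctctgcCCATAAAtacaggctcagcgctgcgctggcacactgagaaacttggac

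Muc4: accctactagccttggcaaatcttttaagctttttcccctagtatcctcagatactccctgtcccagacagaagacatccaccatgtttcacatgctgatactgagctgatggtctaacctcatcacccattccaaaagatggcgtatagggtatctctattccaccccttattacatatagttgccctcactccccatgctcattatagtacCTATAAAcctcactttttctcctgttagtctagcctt

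Muc13: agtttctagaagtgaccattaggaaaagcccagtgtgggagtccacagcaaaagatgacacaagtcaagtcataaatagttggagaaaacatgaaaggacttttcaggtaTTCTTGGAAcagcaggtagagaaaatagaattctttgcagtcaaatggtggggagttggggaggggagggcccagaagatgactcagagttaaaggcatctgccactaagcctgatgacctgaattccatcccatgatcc

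The changes differed between the models for every member. A quasi-likelihood F test of equal changes in the 6 models passed for all 10 genes (edgeR adjusted p between 3.6e-05 for Agr2 and 0.027 for Muc1), as it did for 60.5% of all genes tested. Between pairs of models, Clca1 was the gene with the largest differences. Its fall in TRUC was larger than the change in DSS by 4.07 on the log2 scale (SE 0.64, adjusted p = 0.00039), and larger than those in DNBS (a difference of -4.02, adjusted p = 0.00077), the IL10 antibody group (-2.80, adjusted p = 0.0095) and TCT (-2.02, adjusted p = 0.044). The IL10 antibody group and TCT differed for 8 of the 10 members, Muc2 (2.14, SE 0.37, edgeR adjusted p = 0.00037) and Zg16 (1.84, SE 0.40, adjusted p = 0.0027) among them, where 19.9% of all genes differed, and the number was also 8 without mouse 4. DSS and the IL10 antibody group differed for 7 (49.8% of all genes), with Agr2 at -1.73 (SE 0.22, adjusted p = 1.5e-06). Between anti-CD40 and TRUC, DSS or DNBS 0 members were called different, where 1.1%, 13.3% and 1.38% of all genes were. The Clca1 difference of TRUC and anti-CD40 was -2.35 (SE 0.63, edgeR adjusted p = 0.067). Models with different control groups also differ in strain or genotype, and these cannot be told apart from the model.

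**Figure D3:**
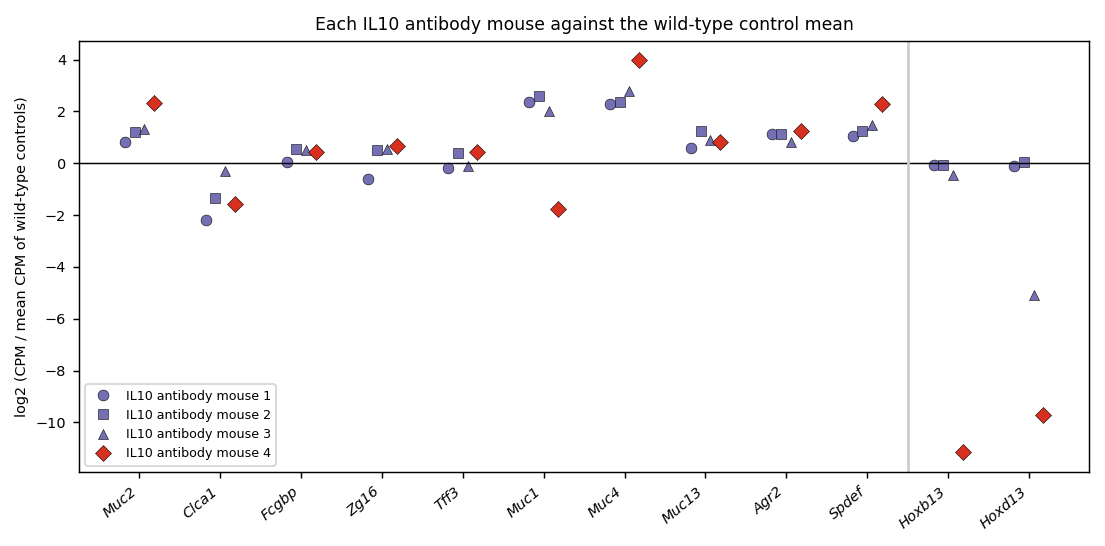
Level of the 10 members and of the distal colon genes Hoxb13 and Hoxd13 in each of the 4 IL10 antibody mice, as log2 of CPM over the mean CPM of the 3 wild-type controls (line at 0). Each symbol is 1 mouse, with mouse 4 in red: it is highest for Muc2, Muc4 and Spdef, is the only one of the 4 below 0 for Muc1, and has 2 and 3 counts of Hoxb13 and Hoxd13.

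Since the epithelial markers themselves moved, the fit was repeated with library sizes set to the sum of the 8 markers. These did not move alike, and the choice of markers was not varied. This scale moved the median of all genes by -0.66 in the IL10 antibody group (-0.57 without mouse 4), 0.36 in DSS, -0.31 in TRUC, -0.30 in anti-CD40, -0.22 in TCT and -0.17 in DNBS. Relative to the sum of these markers, Clca1 was lower in TRUC (-4.28), TCT (-2.16) and anti-CD40 (-1.92), all past the threshold. It was also lower past the threshold in the IL10 antibody group (-1.80, or -1.63 without mouse 4). Zg16 and Tff3 were lower in TRUC (-1.61 and -1.31), TCT (-1.69 and -1.19) and anti-CD40 (-0.79 and -0.79), all past it. Fcgbp passed as lower in TRUC (-0.77) and TCT (-0.81), Spdef in TRUC (-0.57, adjusted p = 0.036) and Muc2 in TCT (-0.83). On this scale 36.3% of all genes were lower in TRUC, 21.6% in TCT, 22.4% in anti-CD40 and 56.9% in the IL10 antibody group. Muc4 and Muc1 were higher in TRUC (1.49 and 1.34, where 11.3% of all genes were) and in the IL10 antibody group (2.30 and 1.36; 1.93 and 1.75 without mouse 4) on both scales. In the IL10 antibody group, where 8.79% of all genes were higher, Muc2 (0.80; 0.55 without mouse 4), Spdef (0.90; 0.70 without it) and Agr2 (0.41, adjusted p = 0.047) also passed, and Agr2 lost its call without mouse 4 (0.44, adjusted p = 0.0505). In DSS, Muc2 (0.91), Zg16 (0.92), Muc13 (0.75) and Muc4 (1.23) passed as higher, as did 36.2% of all genes. For Tff3 in the IL10 antibody group the direction turned, from 0.16 on the TMM scale to -0.53, past the threshold with and without mouse 4. The rise of Agr2 in TRUC (0.29), that of Muc13 in the IL10 antibody group (0.23; 0.33 without mouse 4) and that of Muc4 in TCT (0.88), and the fall of Agr2 in DSS (-0.31), did not pass on this scale.

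**Figure D4:**
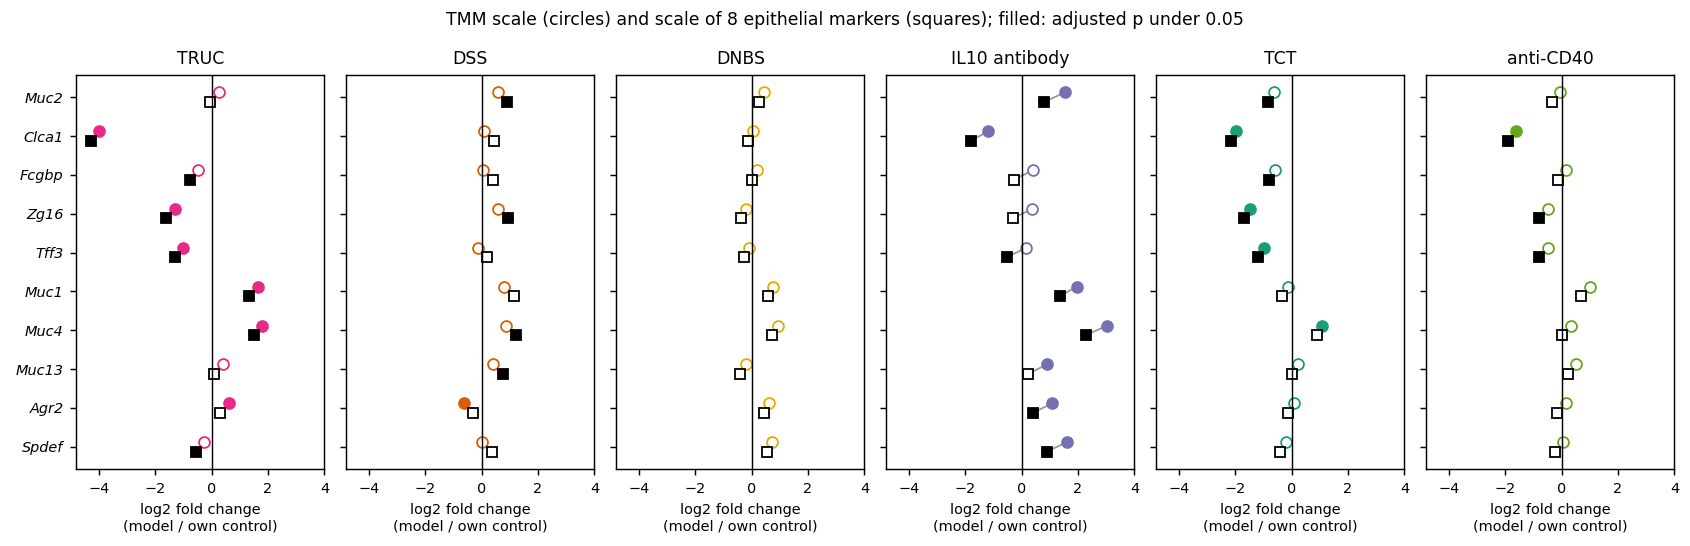
Log2 fold change of each gene in each model on the TMM scale (circles) and with library size set to the sum of 8 epithelial markers (black squares); filled symbols have an edgeR adjusted p under 0.05. Squares lie left of circles in TRUC, DNBS, the IL10 antibody group, TCT and anti-CD40 and right of them in DSS, and Clca1 keeps a filled symbol on both scales in 4 models.

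The controls differed among themselves. Against the wild-type controls, 2 members were higher in the Rag2-/- controls (Zg16 by 0.99, edgeR adjusted p = 0.032; Spdef by 0.90, adjusted p = 0.039), where 3.25% of all genes were higher and 4.86% lower (8.11% in all). In the Rag1-/- controls, which are also of another strain, 2 were higher (Zg16 by 0.93, adjusted p = 0.037; Muc2 by 0.82, adjusted p = 0.047), where 4.77% of all genes were higher and 6.18% lower (10.9% in all). For 8 of the 10 members the mice of each of these control groups did not overlap the wild-type mice, against 37.9% and 37.2% of all genes. These calls were lost on leaving out single mice. Since Rag2 and Rag1 counts left doubt about the genotypes, TCT was also set against the wild-type controls. There Clca1 (-0.99, edgeR adjusted p = 0.105) and Zg16 (-0.54, adjusted p = 0.157) lost their calls. Muc4 (1.24, adjusted p = 0.018) and Tff3 (-0.54, adjusted p = 0.037) kept theirs. With anti-CD40 set against the Rag2-/- controls, Tff3 passed (-0.62, edgeR adjusted p = 0.023) and Clca1 kept its call (-1.48, adjusted p = 0.024). Both of these comparisons set C57BL/6 mice against Balb/C controls, so that strain differs as well.

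Other genes of goblet cells were taken from 3 lists, of secretory products (6 of 11 tested), other membrane mucins (4 of 5 tested) and genes of the goblet cell lineage and its secretory machinery (15 of 15 tested). Of the lineage list, 10 were lower and 2 higher in TRUC (23.4% and 22.4% of all genes), 9 and 1 in DSS (16.3% and 17.7%), 7 and 1 in TCT (14% and 16.1%), 3 and 5 in the IL10 antibody group (26.1% and 27.2%), 0 and 1 in DNBS (2.21% and 3.95%) and 0 and 3 in anti-CD40 (10.7% and 10.9%). The list medians were -0.95 in TRUC, -0.87 in DSS, -0.72 in TCT, -0.28 in anti-CD40, 0.11 in the IL10 antibody group and 0.29 in DNBS. Of the secretory products, 2 were higher and 2 lower in TRUC, 1 and 0 in DSS, 1 and 0 in DNBS, 3 and 0 in the IL10 antibody group, and 1 and 1 in both TCT and anti-CD40. Of the membrane mucins, 1 was higher and 2 lower in TRUC and in TCT, 2 and 0 in the IL10 antibody group, and 1 and 0 in DSS, DNBS and anti-CD40. Without mouse 4, the IL10 antibody group had 4 lineage genes higher and 3 lower (median 0.18), 2 secretory products higher and 0 lower, and 1 membrane mucin higher and 0 lower. Of all 18632 genes tested in that fit, 4690 were higher and 4610 lower. In DSS the epithelial marker sum was also below that of the controls and the leukocyte marker sum above it (936 to 3165 CPM, against 277 to 347 CPM). The summed level of the lineage list was 1751, 2261 and 1293 CPM in DSS, against 2971, 3199 and 3883 CPM, and the lowest was mouse 8, which had the highest leukocyte sum. The part of these in the lineage genes was not tested.

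Foxa2, a forkhead factor of goblet cell differentiation, was lower in 4 models (TRUC -1.16, DSS -1.54, IL10 antibody -1.31, TCT -1.06), as was Hes1, the Notch target that holds back the secretory lineage (-0.95, -1.17, -0.66 and -0.76). All 8 passed with edgeR, the IL10 antibody values without mouse 4 (-1.04 and -0.60) also passed, and 7.12% of all genes were lower in at least 4 models. Atoh1, the factor that commits cells to the secretory lineage, was lower in TRUC (-1.17), DSS (-1.08) and TCT (-0.72). Ern2, a stress sensor of mucus cells, and the factors Creb3l1 and Creb3l4 were called lower in the same 3 models, and these 4 genes were chosen after their values were seen. On the TMM scale with all mice in 1 fit, Muc2, Clca1, Zg16 and Tff3 were not called in DSS, where 9 of the 15 lineage genes were lower. Muc2 passed there as higher without IL10 antibody mouse 4 (edgeR adjusted p = 0.0235). With only the 2 groups in the fit, Zg16 passed as higher by edgeR (adjusted p = 0.0499). DESeq2 on these groups called both Muc2 and Zg16 higher (adjusted p = 0.026 and 0.015).

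Retnlb, the antibacterial goblet cell product Relm-beta, was higher in 6 of 6 models, and 8.7% of all genes were higher in at least 4. The log2 fold change of Retnlb was 6.68 in TRUC (SE 1.09), 3.47 in TCT (SE 0.96) and 4.38 in anti-CD40 (SE 0.98). Against the wild-type controls, with at most 1 count in any mouse, it was at least 94.7-fold higher in DSS, 149-fold in DNBS and 1242-fold in the IL10 antibody group, taking 3 counts per library as the control level. Mouse 4 had 874 CPM of Retnlb and the other 3 IL10 antibody mice a mean of 80.8 CPM, so that the bound without mouse 4 was 360-fold. Xbp1, a factor of the unfolded protein response, was higher in 5 models (TRUC 1.15, DSS 0.64, IL10 antibody 1.13, TCT 0.54, anti-CD40 0.77), and Galnt12, an enzyme that starts mucin glycosylation, in 4 (TRUC 0.50, DNBS 0.97, IL10 antibody 1.24, anti-CD40 0.63). Both also passed without IL10 antibody mouse 4 (Xbp1 1.24, Galnt12 1.00).

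Of the listed genes, 7 were called in both directions, as were 7.15% of all genes. Muc16, with at most 33 counts in any mouse, was higher in DSS (2.46) and DNBS (2.29) and lower in TRUC (-1.51), and in TCT it was at least 5.96-fold higher than in the Rag1-/- controls, which had 1 to 2 counts. Ang4, an antimicrobial ribonuclease, was higher in the IL10 antibody group (4.90) and at least 29.02-fold lower in anti-CD40, where it had 1 to 3 counts, and Muc3a was higher in the IL10 antibody group (1.48) and lower in TCT (-2.08). Gfi1 (TRUC -1.54, IL10 antibody 0.77), Foxa3 (TRUC -0.53, TCT -0.70, IL10 antibody 0.54), Klf4 (DSS -0.59, IL10 antibody 0.61) and Foxa1 (DSS -0.50, anti-CD40 0.41) were the others. Without IL10 antibody mouse 4, the calls of Ang4 (0.68, edgeR adjusted p = 0.645), Muc3a (-0.05, adjusted p = 0.931) and Gfi1 (0.75, adjusted p = 0.0511) in that group were lost, while Klf4 (0.56) and Foxa3 (0.50) still passed.

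**Figure D5:**
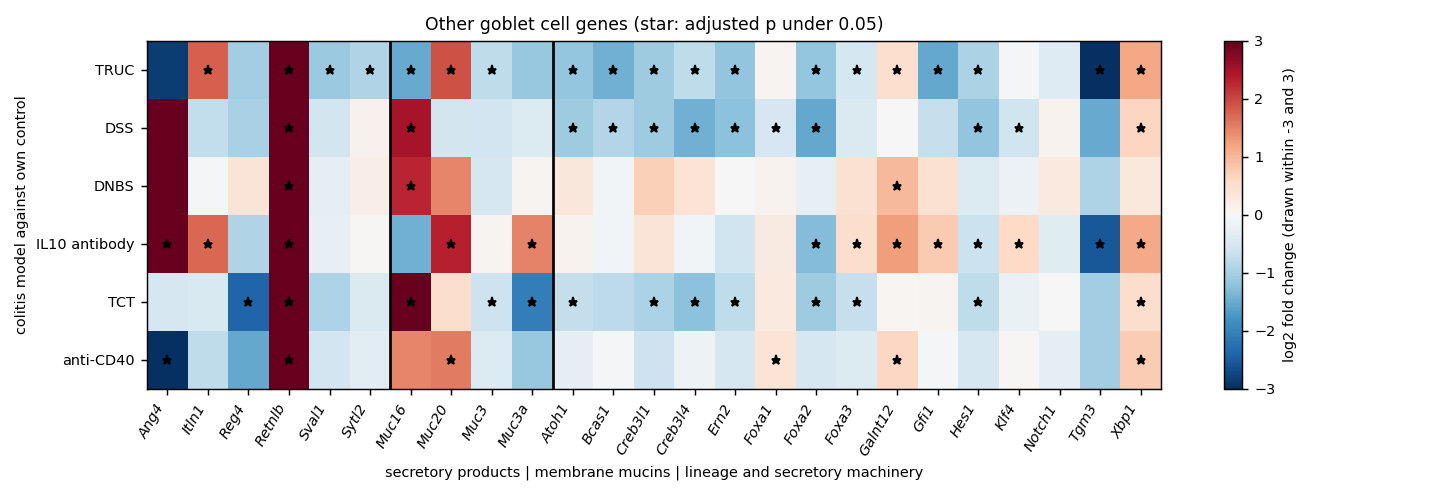
Log2 fold change (colour, drawn within -3 and 3) of the 25 tested genes of the 3 further lists in each of the 6 models against its own control; stars mark an edgeR adjusted p under 0.05 and black lines separate the lists. Retnlb is starred as higher in every row, and the lineage genes from Atoh1 to Xbp1 hold 10 lower stars in TRUC, 9 in DSS and 7 in TCT.

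Across the 29 mice, log2 CPM of Tff3 and Zg16 went together most closely among the members (Pearson r = 0.87, Spearman rho = 0.85). By Pearson r, Muc2 and Spdef (0.80 and 0.68) and Agr2 and Spdef (0.73 and 0.70) followed. By Spearman rho the next pair was Tff3 and Clca1 (0.65 and 0.72). Clca1 went with Zg16 (0.68 and 0.68) and against Muc4 (-0.53 and -0.70) and Muc1 (-0.51 and -0.54). After the group means were taken out, Pearson r was 0.81 for Muc2 and Spdef and 0.80 for Tff3 and Zg16. It was 0.72 for Clca1 and Zg16 but only 0.47 for Agr2 and Spdef, -0.18 for Clca1 and Muc4 and 0.019 for Clca1 and Muc1. These are descriptions over mice that share groups and libraries. IL10 antibody mouse 4 is among these mice, and no correlation was computed without it. Among all genes tested, the highest Pearson r over the 29 mice was with Zg16 for Tff3 and with Tff3 for Zg16 (0.87), Capzb for Muc4 (0.92), Galk2 for Agr2 (0.93), Fam189a2 for Clca1 (0.90), Ms4a8a for Muc13 (0.88), Dctn2 for Spdef (0.87), Anxa3 for Muc1 (0.86), Dpysl2 for Muc2 (0.85) and Ace for Fcgbp (0.80). The next in order were Atp6v1d and Cfl1 for Muc4, Cmpk1 and Tm9sf3 for Agr2, Cpeb3 and Fam69b for Clca1, Mapk13 and Sptlc2 for Muc13, and 1810065E05Rik for both Muc2 and Spdef.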

How the data were processed

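Poly-A RNA of colon segments from 29 mice was sequenced, and the authors deposited raw counts, whole numbers of reads per gene and mouse without normalization. The submitters' processing notes name Trimmomatic, HISAT2, HTSeq and the build GRCm38, with no role or order, and versions and strand setting are not given in the sources used here. The 92 rows of spike-in controls held only counts of 0 and were dropped. No column was left without a sample.

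Counts of the 9 groups were fitted together in edgeR 4.0.16 (R 4.3.3) with TMM scaling and no covariate, over the 18616 genes averaging 3 or more counts per mouse. Contrasts of each model with the control chosen by its labels used the quasi-likelihood test. P values were adjusted by Benjamini-Hochberg over all 18616 genes, and 0.05 was the threshold. The standard error is the size of the log2 change over the root of its F statistic. Equality of the 6 changes was tested with an F test on 5 degrees of freedom, and pairs of models in the same fit. Level profiles used log2 CPM with a prior count of 2. Exon lengths, positions and overlaps are from GENCODE M21, and promoters from RefSeq. A count of 0 allows up to 3 counts (0.179 to 0.314 CPM), which covers counting error only. P values measure the spread between the mice of these groups. The fitting code was tested on simulated data.

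The 10 genes and all lists (epithelium, absorptive colonocytes, leukocytes, smooth muscle, exocrine pancreas, tuft and enteroendocrine cells, distal colon position, secretory products, membrane mucins, lineage and secretory machinery) were chosen with earlier results of these data known. Fam3d, Muc17 and Prac1 found no row and are not used here. Further genes were named where called with the same sign in at least 4 of the 6 models or in both directions, and for likeness the 3 highest Pearson r per member, given in full for most.

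The alternatives were RLE and upper quartile scaling, library sizes from the 8 epithelial markers, no filter and filterByExpr, an adjusted p under 0.01, DESeq2 1.42.0 and edgeR on the 2 groups alone, other control groups for TCT and anti-CD40, a replicate block, and leaving out each mouse in turn. The epithelial scale and the list counts without IL10 antibody mouse 4 were added after seeing the data.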

Additional observations from a re-analysis of the deposited data

Results flagged for a closer look

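Of 80 checks for a mouse far from the others in the groups of 4 mice (levels and marker sums, linear and log2), 6 exceeded the limit of 0.829 for the gap to the nearest mouse over the range, and chance flags about 1 in 20. Muc1 of IL10 antibody mouse 4 was far below its group on the log2 scale (ratio 0.867; 6.27 CPM). Zg16 of IL10 antibody mouse 1 was far below on the linear scale (0.834) and on the log2 scale (0.884; 639 CPM). The summed distal colon markers of IL10 antibody mouse 4 were far below on the log2 scale (0.899), and in TRUC 1 mouse was far above on the linear scale (0.867; 757 CPM) and on the log2 scale (0.857). The cause was not tested.

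The change against the own control differed between the 6 models for every member by the edgeR F test, with adjusted p of 3.6e-05 for Agr2, 3.9e-05 for Muc4, 7.9e-05 for Spdef, 0.00021 for Clca1, 0.00027 for Muc2, 0.00062 for Zg16, 0.0018 for Muc13, 0.0038 for Tff3, 0.019 for Fcgbp and 0.027 for Muc1. Strain and genotype differ between the sets of models that have different controls, and cannot be told apart from the models there.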

How the results depend on the processing

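Of 3020 alternative log2 fold changes of the members, 2811 kept direction and side of the threshold, 38 changed sign, and 1 of these was past the threshold (Tff3 in the IL10 antibody group on the epithelial scale). The number of members called moved by over 1.5 times as follows. RLE scaling gave 1 for Rag1-/- against wild-type controls (10.9% of all genes called). Upper quartile scaling gave 2 for anti-CD40 (21.8% of all genes), 1 for Rag2-/- (8.17%) and 0 for Rag1-/- (11.2%) against wild-type controls. The epithelial scale gave 4 for DSS (42.2%), 3 for anti-CD40 (26.8%), 0 for Rag2-/- (10.0%) and 1 for Rag1-/- (9.25%) against wild-type controls. A threshold of 0.01 left 0 in DSS, anti-CD40 and both control comparisons. With edgeR on the 2 groups alone the numbers were 2 for DSS, 4 for anti-CD40, 8 for Rag2-/- and 6 for Rag1-/- controls, and with DESeq2 they were 3 for DSS, 4 for DNBS, 5 for anti-CD40, 8 for Rag2-/- and 7 for Rag1-/- controls. Against the other control group the number was 2 in TCT and 2 in anti-CD40. For the threshold of 0.01, the fits on 2 groups and the other control groups, the share of all genes called was not computed. Higher numbers there cannot be told apart from more calls over all genes.

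Leaving out 1 mouse at a time gave 5 to 7 members in TRUC, 0 to 4 in DSS, 0 to 2 in DNBS, 6 to 7 in the IL10 antibody group, 3 to 5 in TCT, 0 to 2 in anti-CD40, 0 to 3 in each control comparison, and 8 to 10 members differing between the models. Calls over all genes ranged from 37.1% to 48.2% in TRUC, 20.6% to 37.1% in DSS, 1.07% to 12.6% in DNBS, 44.9% to 55.3% in the IL10 antibody group, 21.9% to 32.7% in TCT, 9.38% to 25.5% in anti-CD40, and 5.18% to 9.51% and 7.03% to 12.8% in the Rag2-/- and Rag1-/- control comparisons. It changed the sign of small values. These ranged from -0.026 to 0.19 for Agr2 in TCT, -0.13 to 0.21 for Clca1 in DNBS, -0.093 to 0.23 for Clca1 in DSS, -0.30 to 0.21 for Fcgbp in DSS, -0.29 to 0.043 for Muc1 in TCT, -0.0069 to 0.49 for Muc13 in TCT, -0.15 to 0.075 for Muc2 in anti-CD40, -0.013 to 0.25 for Muc4 in Rag1-/- against wild-type controls, -0.20 to 0.14 for Spdef in DSS and -0.091 to 0.15 for Spdef in anti-CD40.

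Upper quartile scaling changed the sign of Spdef in DSS (-0.020), Clca1 in DNBS (-0.031), Tff3 in the IL10 antibody group (-0.0060) and Spdef in anti-CD40 (-0.012). It moved the median of all genes by up to -0.17 in the IL10 antibody group, where 3854 genes were then higher and 6187 lower (5058 and 4858 with TMM), and in TRUC 3413 and 5251 (4163 and 4361 with TMM). The epithelial scale moved this split further, with 1637 higher and 10590 lower in the IL10 antibody group, 2102 and 6749 in TRUC, 6748 and 1111 in DSS, 308 and 506 in DNBS, 1863 and 4024 in TCT, and 813 and 4174 in anti-CD40. It changed the sign of Muc2 in TRUC (-0.052), Tff3 in DSS (0.20), Clca1 in DNBS (-0.12), Tff3 (-0.53), Fcgbp (-0.26) and Zg16 (-0.32) in the IL10 antibody group, Agr2 in TCT (-0.13), Fcgbp (-0.12), Agr2 (-0.15) and Spdef (-0.25) in anti-CD40, and Agr2 in Rag2-/- against wild-type controls (-0.068). The other control group changed the sign of Muc1 (0.18), Muc2 (0.21), Fcgbp (0.090) and Spdef (0.58) in TCT, and of Muc2 (0.43) and Spdef (-0.082) in anti-CD40. The causes were not tested.

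TRUC and Rag2-/- mice share replicate numbers 2 and 4, and IL10 antibody and wild-type mice share 1, 2 and 4. Deviations of same-numbered mice did not go together (r = -0.05 and -0.01 in TRUC, and 0.06, 0.01 and -0.02 in the IL10 antibody group). These few values gave no sign of a pairing but cannot exclude one. With a replicate block on these mice, Fcgbp (-0.61, edgeR adjusted p = 0.0076) and Spdef (-0.42, adjusted p = 0.021) passed in TRUC and Muc1 lost its call in the IL10 antibody group (1.34, adjusted p = 0.305). The same mice without the block, an alternative chosen after seeing the data, gave -0.60, -0.44 and 1.92 (adjusted p = 0.0073, 0.045 and 0.098).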
